A study of Mus musculus with 11 samples.

Results

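The 50 genes described here encode histone lysine writers and erasers: 13 demethylases, 9 deacetylases, 20 methyltransferase genes (4 of them the core of Polycomb repressive complex 2, PRC2) and 8 acetyltransferases, chosen by name as enzymes that lie outside the LSD1 CoREST complex. They are called enzymes below for short, although the PRC2 subunits Eed and Suz12 are not catalytic. Each of the 50 symbols matched 1 identifier in the deposited count table, which holds 37991 genes, and all 50 passed the filter on low counts that left 17099 genes tested. RNA was sequenced from retinas of 11 mice at postnatal day 24 (PN24). The 2 wild-type saline and 3 wild-type GSK mice were C57Bl/6J. The 3 rd10 saline and 3 rd10 GSK mice were labelled B6.CXB1-Pde6brd10/Jrd10 on a C57Bl/6J background, a strain with a mutant allele of the rod phosphodiesterase gene Pde6b. GSK is GSK2879552, an inhibitor of the demethylase LSD1 (gene Kdm1a), injected intraperitoneally at 4.2 mg/kg each day from PN9 to PN24, while controls received saline on the same schedule. Each library came from the right retina of 1 animal. The Pde6b mutation is carried by the whole animal, and the whole retina was sequenced, so a comparison with wild type is not one of a single cell type. The series' title links LSD1 and HDAC1 inhibition to rod survival. The question here is how the transcripts of the other chromatin enzymes differed with genotype and with the inhibitor.

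Lysine residues in the tails of histones carry methyl and acetyl groups that are added by writers and removed by erasers. Methylation of H3K4, H3K36 and H3K79 and acetylation generally mark active genes, whereas methylation of H3K9 marks constitutive heterochromatin and methylation of H3K27, written by PRC2, marks repressed developmental genes. Demethylases of the KDM2 to KDM7 families use iron and 2-oxoglutarate and so differ from LSD1, which uses flavin. Rods are the most numerous cells of the mouse retina, and their nuclei are unusual in holding heterochromatin at the centre and active chromatin at the rim.

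Libraries held between 19657030 and 28053367 counts. Levels are given as CPM, the share of a library's counts after edgeR's TMM scaling between libraries, and differences as log2 fold changes with their standard error (SE). A gene was called when edgeR's quasi-likelihood test gave a Benjamini-Hochberg adjusted p under 0.05 over all genes tested, and "rose" and "fell" are used only of called genes. As checks, Pde6b averaged 2270 ± 49.8 CPM (SD, n = 2) in wild-type saline, 2240 ± 35.4 (n = 3) in wild-type GSK, 362 ± 51.9 (n = 3) in rd10 saline and 1380 ± 383 (n = 3) in rd10 GSK. Kdm1a lay between 83.2 and 105 CPM and Hdac1 between 33.5 and 44.6 CPM over the 11 libraries. The rd10 saline libraries stood apart for both. They were the lowest for Kdm1a, at 83.2 to 88.9 CPM against at least 93.6 CPM elsewhere. For Hdac1 they were the highest, at 43.0 to 44.6 CPM against at most 40.7 CPM elsewhere. Summed over 12 rod genes, wild-type saline libraries held 67400 to 68900 CPM and wild-type GSK libraries 63300 to 66100 CPM. The same sum was 9140 to 11200 CPM with saline and 27400 to 52800 CPM with GSK in rd10. Sums over 12 microglial genes were 62.1 to 62.7, 65.4 to 70.5, 410 to 507 and 113 to 259 CPM in the same order of groups, and sums over 9 Muller glia genes 5970 to 6120, 6630 to 6770, 8270 to 9380 and 4670 to 6210 CPM. None of the genes in these 3 lists was at 0 in all libraries. In these bulk samples, fewer cells of a type and less RNA per cell cannot be told apart.

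Several libraries stood apart before any comparison was made. The sum over 15 lens genes did not exceed 17.7 CPM in 9 libraries, but reached 742 CPM in replicate 2 of wild-type saline and 7310 CPM in replicate 2 of rd10 GSK. Xist, transcribed from the inactive X chromosome, was at least 780 CPM in 7 libraries and under 10 CPM in the remaining 4, which were replicate 2 of wild-type GSK, replicate 2 of rd10 saline, and replicates 1 and 3 of rd10 GSK. The Y-linked genes Ddx3y (62.4 to 88 CPM), Uty (25.9 to 32.9 CPM) and Kdm5d (19.9 to 30.3 CPM) were detected in those 4. They were at 0 in the other 7, so the libraries low in Xist came from males. The shallowest library, rd10 saline replicate 2, gave the lowest level of all 11 libraries for 28 of the 50 enzymes. Against the other rd10 saline libraries its median difference was -0.17 log2 over the 50 enzymes, -0.31 over the 19 enzymes with at least 10 kb of exon, and -0.23 over all 1371 genes of that length with at least 5 CPM, while genes under 2 kb were higher by 0.17. Results that rest on these libraries are given with and without them.

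**Figure D1:**
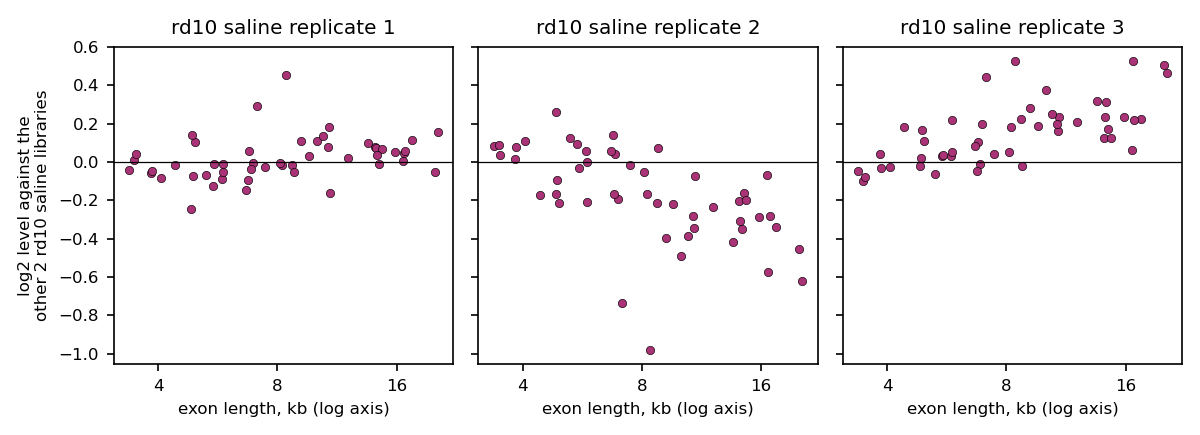
Level of each of the 50 enzymes in each rd10 saline library, as the log2 difference from the mean log2 level of the other 2 rd10 saline libraries (y axis), against the summed exon length in kb (x axis, log scale). In replicate 2 most enzymes with long transcripts lie below 0, with a median of -0.31 over the 19 enzymes of at least 10 kb, whereas in replicate 3 that median is 0.23.

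Levels were compared between enzymes only per length, as the mean CPM over all 11 libraries per kb of exon. On this scale the most abundant were the class IV deacetylase Hdac11 at 42.6 CPM per kb, the PRC2 subunit Suz12 at 33.6, the H3K4 demethylase Kdm5c at 31.8, the class IIa deacetylase Hdac5 at 31.1 and the H3K9 methyltransferase Ehmt2 at 29.4. The least abundant were the class I deacetylase Hdac8 at 1.80, Hdac4 at 1.82, the PRC2 catalytic subunit Ezh2 at 2.15 and Kdm2b at 2.32 CPM per kb. The order differed between groups, although Hdac11 was the highest in each. By group mean, Kdm4c was at 36.9 CPM per kb in wild-type saline, 4th of the 50, and at 16.1 in rd10 saline, while Ehmt2 was at 29.7 in wild-type saline, 7th, and at 30.1 in rd10 saline, 2nd. Hdac4, Hdac8, Ezh2 and Kdm2b were the lowest 4 in every group. All 50 enzymes were detected in every library, with at least 176 counts.

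In rd10 saline retinas compared with wild-type saline, 22 of the 50 enzymes were called, and 20 of these were lower. The background in this comparison was high, with 40.5% of all tested genes called, 21.5% higher and 19.0% lower. The share of enzymes called, 44.0%, was close to that background, whereas their direction was not evenly split: 20 of 50 were lower and 2 of 50, Setd7 and Hdac7, were higher. The median difference over the 50 enzymes was -0.16 log2, against 0.02 over all tested genes. Of the 22 erasers 1 was higher and 9 were lower, and of the 28 writers 1 was higher and 11 were lower. The largest decreases were in the H3K9 methyltransferase Suv39h2, the H3K9 and H3K36 demethylase Kdm4c and the H3K4 demethylase Kdm5b. The rd10 saline libraries lay below both wild-type saline libraries for 28 of 50 enzymes (29.7% of all genes) and above both for 5 (32.5% of all genes), so that 62.2% of all genes had groups that did not overlap.

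The genotype calls rest on 2 wild-type saline animals. In all 22 alternative analyses, 12 enzymes stayed called in the same direction: Kdm3a, Kdm3b, Kdm4b, Kdm4c, Kdm5b, Suv39h1, Suv39h2, Ezh1, Suz12, Hdac5, Hdac9 (lower) and Hdac7 (higher). The share of all genes that stayed called in every alternative was not counted, here or for the other comparisons. Leaving out both libraries with lens transcripts left 12 calls of 50, with 23.4% of all genes called under that setting. Without wild-type saline replicate 1 there were 13 (25.3% of all genes) and without replicate 2 there were 14 (25.4% of all genes), and the calls lost were drawn from Kdm2a, Kmt2e, Setd7, Setd2, Dot1l, Ehmt1, Hdac10, Kat2b, Kat5 and Kat7. Without rd10 saline replicate 2, 26 enzymes were called (40.0% of all genes), 20 lower and 6 higher, the 4 additional ones being Kdm6b, Kmt2a, Nsd1 and Crebbp. Scaling to 22 genes of inner retinal neurons gave 1 higher and 23 lower (41.5% of all genes called).

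GSK treatment of rd10 mice was accompanied by higher levels of 17 of the 50 enzymes and lower levels of 2, Setd7 and Hdac11, compared with rd10 saline. Over all tested genes 32.9% were called here, 17.6% higher and 15.2% lower, so 19 called enzymes (38.0%) were again close to the background in number, and the higher direction was the more frequent. The median difference was 0.11 log2 over the 50 enzymes and 0.01 over all tested genes. Suv39h2, Kdm4c, Kdm5b and Dot1l showed the largest increases. Because this comparison and the genotype comparison share the rd10 saline libraries, a low or high value there moves both in opposite senses, and their values are set side by side below without a test of their likeness. The rd10 GSK libraries lay above all rd10 saline libraries for 18 of 50 enzymes (22.5% of all genes) and below them for 5 (20.2% of all genes, and 42.7% in either direction).

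In all 22 alternative analyses, 10 of these calls stayed: Kdm3a, Kdm3b, Kdm4c, Kdm5b, Dot1l, Suv39h1, Suv39h2, Ezh1, Hdac9 and Hdac10, all higher. Scaling to the 22 inner retinal genes raised the median of all tested genes to 0.34 log2, and then 38 enzymes were higher and 0 lower (54.6% of all genes called), against 17 and 2 with TMM scaling. Among all called genes, the share that was higher moved from 53.6% to 95.6% with that scaling. Those 22 genes come from lists of bipolar, amacrine and ganglion genes whose own sums were lower with GSK in rd10. The sums were 2500 to 2560, 2240 to 2260 and 1810 to 1880 CPM with saline. With GSK they were 1840 to 1960, 1780 to 2120 and 1420 to 1560 CPM. A lower reference raises the differences of all other genes. These sums are themselves TMM-scaled, so they cannot show which scaling lies nearer the true levels. Whether either scaling is neutral was not tested. Fitting only the rd10 libraries gave 12 calls of 50, with 21.8% of all genes called. Without rd10 saline replicate 2 there were 15 higher and 4 lower (31.8% of all genes called), with Kmt2a and Nsd1 added as lower and Ehmt1 and Hdac4 lost.

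Microglial, Muller glial and rod gene sums moved with the same groups, and their part in the enzyme differences was not tested. Among the rd10 GSK libraries the rod sum was 27400 CPM in replicate 1, 43300 in replicate 2 and 52800 in replicate 3. Of the 17 enzymes higher with GSK in rd10, 13 (76.5%) had the same order of levels over these 3 libraries, as had 45.9% of all 3002 genes higher with GSK and 25.2% of all genes. Dot1l and the PRC2 subunit Eed had the opposite order. This order was not particular to the rod sum. Sums over Muller glia genes (4670, 5170 and 6210 CPM) and over the bipolar, amacrine and ganglion lists had it too. The microglial sum ran in reverse, at 259, 179 and 113 CPM in replicates 1, 2 and 3.

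**Figure D2:**
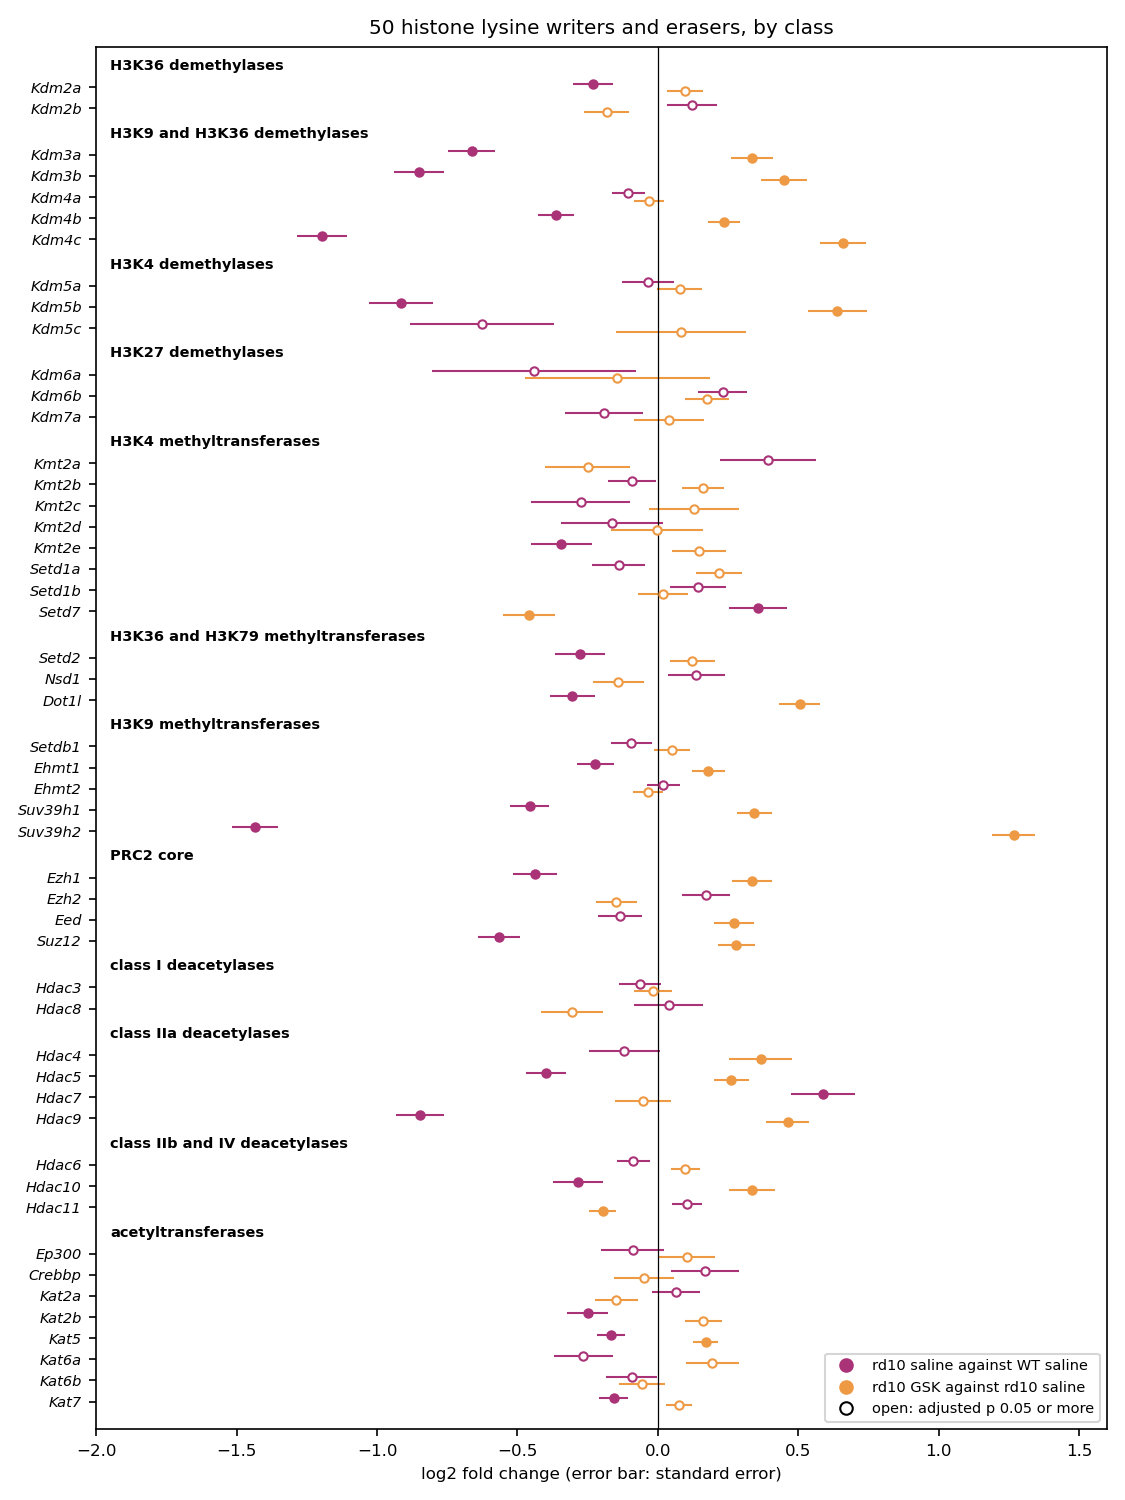
Log2 fold change (x axis) with its standard error for each of the 50 enzymes, grouped by class (y axis), in rd10 saline against wild-type saline (purple) and in rd10 GSK against rd10 saline (orange). Filled points passed the adjusted p threshold of 0.05, and open points did not. Suv39h2 lies farthest from 0 in both comparisons, at -1.43 and 1.27, and Setd7 runs opposite to most of the other called genes, at 0.36 and -0.46.

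In wild-type mice no enzyme was called between GSK and saline by edgeR (0 of 50, with 0.532% of all tested genes called, 0.444% higher and 0.0877% lower), and DESeq2 and limma-voom also called 0. The differences ranged from -0.25 log2 (Kdm5c) to 0.16 (Ezh2), with a median of 0.00. The GSK libraries lay above both saline libraries for 8 enzymes (17.2% of all genes) and below both for 7 (17.3% of all genes, and 34.4% in either direction). Setd7 was the only enzyme with an unadjusted p under 0.05, at -0.23 ± 0.10 log2 (SE, edgeR adjusted p = 0.55). When only the wild-type libraries were fitted, which called 5.64% of all genes, Setd7 was called lower, at -0.22 ± 0.05 (SE, edgeR adjusted p = 0.018). In simulated data of the same size, this comparison recovered 69% of 2-fold and 48.5% of 1.5-fold changes in genes drawn from all those tested. Recovery among the 50 enzymes was not measured, and an enzyme that was not called is not shown to be unchanged.

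The genotype by treatment interaction asks whether the GSK difference in rd10 mice was larger than the GSK difference in wild-type mice. It was called for 9 of 50 enzymes, all in the positive direction: Suv39h2, Kdm4c, Dot1l, Kdm5b, Kdm3b, Ezh1, Hdac9, Kdm3a and Hdac5. Over all tested genes 12.5% were called in the interaction, 7.49% in the positive and 4.98% in the negative direction. Among genes with a mean of at least 50 counts, a filter that all 50 enzymes pass, 16.5% were called. Suv39h1 was added to the called enzymes there. Of the erasers 6 of 22 were called and of the writers 3 of 28. Suv39h2 and Kdm4c were called in all 21 alternative analyses. The other 7 lost the call without both libraries with lens transcripts, which left 2 enzymes and 3.00% of all genes called, and leaving out 1 library at a time gave between 3 and 11. Without rd10 saline replicate 2, Kmt2a, Setd7 and Suv39h1 were called as well, and Kdm3a and Kdm5b were not (14.8% of all genes called). Scaling to the inner retinal genes gave 30 calls, all positive (35.0% of all genes called in either direction), with a shift of 0.32 log2 in the median of all tested genes.

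**Figure D3:**
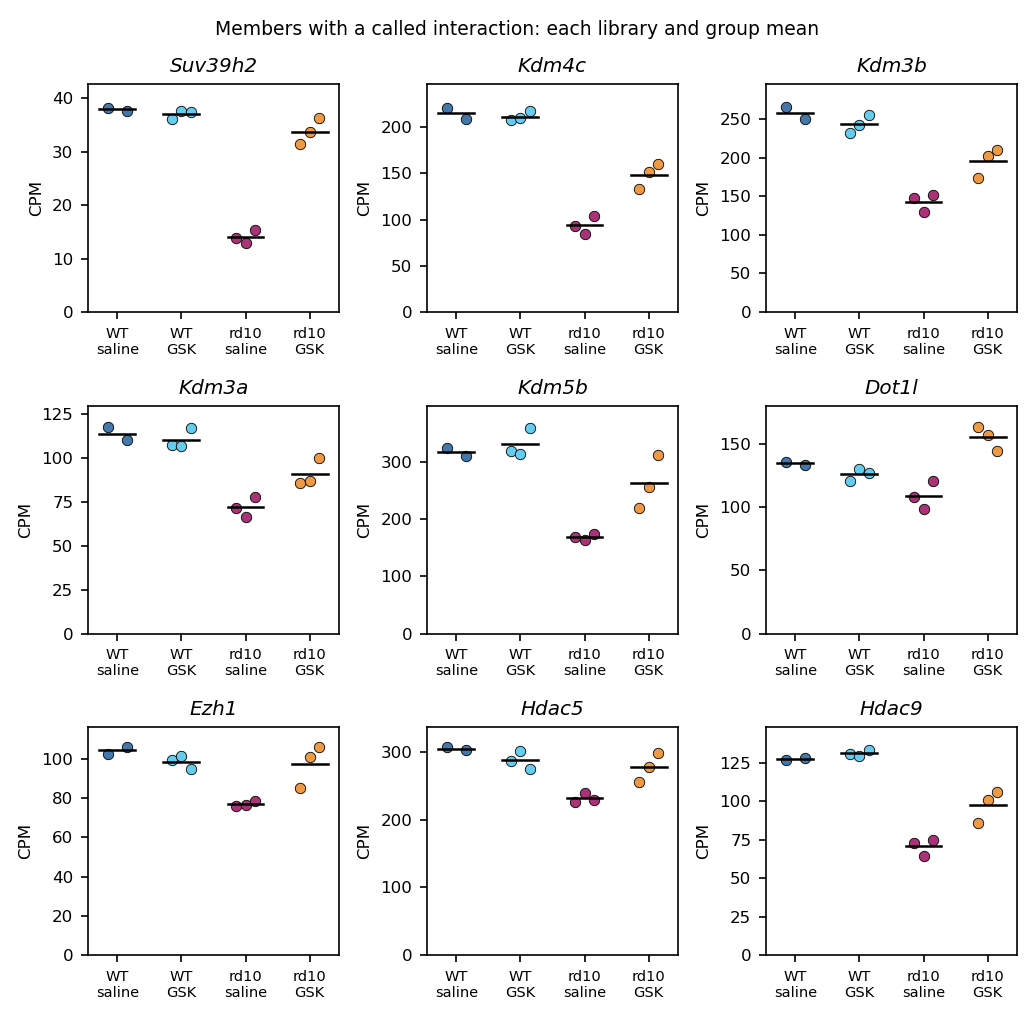
Level in CPM (y axis, from 0) of the 9 enzymes with a called interaction, in each library (points) and as the group mean (bars), by genotype and treatment (x axis). In rd10 saline all 9 lie below both wild-type groups, except that 1 Dot1l library, at 121 CPM, overlaps the lowest wild-type GSK library at 120.5 CPM. In rd10 GSK all lie above rd10 saline.

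Set against wild-type saline, rd10 GSK retinas still differed in 7 of 50 enzymes, with 24.4% of all tested genes called (14.1% higher, 10.3% lower). Kdm6b and Hdac7 were higher, and Kdm3a, Kdm3b, Kdm4c, Suz12 and Hdac9 were lower. The rd10 GSK libraries lay above both wild-type saline libraries for 7 enzymes (27.1% of all genes) and below both for 19 (26.5% of all genes, and 53.5% in either direction). Suv39h2 was not among the called enzymes. This comparison shares the wild-type saline libraries with the genotype comparison. Only the Kdm4c call was kept in all 22 alternative analyses. Leaving out wild-type saline replicate 1 (6.01% of all genes called), or both libraries with lens transcripts (4.16%), left 1 call, and leaving out replicate 2 of that group left 3 (9.22%). With inner retinal scaling 13 enzymes were higher and 1 lower (36.1% of all genes called), and without rd10 GSK replicate 3 there were 11 calls (31.2%).

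The classes described below hold 2 to 8 genes each, and whether a class departs from the all-gene share was not tested. Among the 5 demethylases of H3K9 and H3K36, 4 fell in rd10 saline (19.0% of all genes) and 4 rose with GSK in rd10 (17.6% of all genes). In both comparisons these were Kdm3a, Kdm3b, Kdm4b and Kdm4c. Kdm4c removes methyl groups from trimethylated H3K9 and H3K36. Its level was 221 and 209 CPM in wild-type saline, 207.5, 209.5 and 218 in wild-type GSK, 93.1, 84.9 and 104 in rd10 saline, and 133, 152 and 160 in rd10 GSK. All rd10 saline libraries were below all rd10 GSK libraries, which were in turn below all wild-type ones. The difference was -1.20 ± 0.09 log2 (SE, adjusted p = 3.2e-06) with genotype and 0.66 ± 0.08 (adjusted p = 1.4e-04) with GSK in rd10, and -0.54 ± 0.09 (adjusted p = 0.0021) in rd10 GSK against wild-type saline. The interaction was 0.68 ± 0.12 (adjusted p = 0.0042).

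Kdm3b, which removes mono- and dimethyl groups from H3K9, was at 266 and 250 CPM in wild-type saline, 232, 242.5 and 256 in wild-type GSK, 148, 130 and 152 in rd10 saline, and 174, 203 and 211 in rd10 GSK. The 3 ranges wild type, rd10 GSK and rd10 saline did not overlap. It fell by 0.85 ± 0.09 log2 (SE, adjusted p = 2.7e-05) in rd10 saline and rose by 0.45 ± 0.08 (adjusted p = 0.0015) with GSK, with an interaction of 0.54 ± 0.12 (adjusted p = 0.014). In the annotation 24.6% of its exon bases lie under exons of Gm26538 on the opposite strand, and no source used here gives the strand setting of the counting, so its count is uncertain. Its paralog Kdm3a was at 117.5 and 110 CPM in wild-type saline, 108, 107 and 117 in wild-type GSK, 71.3, 66.4 and 78.1 in rd10 saline, and 85.8, 86.6 and 99.8 in rd10 GSK. These groups were ordered as for Kdm3b without overlap between genotypes. Kdm3a fell by 0.66 ± 0.08 log2 (SE, adjusted p = 1.0e-04) with genotype and rose by 0.34 ± 0.08 (adjusted p = 0.0056) with GSK in rd10. Its interaction of 0.38 ± 0.11 was close to the threshold (adjusted p = 0.049) and was lost in 14 of 21 alternatives.

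Kdm4b, with the same substrates as Kdm4c, fell by 0.36 ± 0.06 log2 (SE, adjusted p = 9.1e-04) in rd10 saline and rose by 0.24 ± 0.06 (adjusted p = 0.0082) with GSK in rd10. Kdm4a was called in neither comparison, at -0.10 ± 0.06 and -0.03 ± 0.05 log2 (SE). The summed level of the 5 genes was 846 to 882 CPM in wild-type saline, 832 to 881 in wild-type GSK, 513 to 578 in rd10 saline and 634 to 737 in rd10 GSK, so the 2 rd10 groups did not overlap with each other or with wild type.

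Of the demethylases of H3K36 alone, Kdm2a was at 177.5 and 165 CPM in wild-type saline, 165, 164 and 177.5 in wild-type GSK, 145, 135 and 158 in rd10 saline, and 155, 151 and 163 in rd10 GSK. All rd10 libraries lay below all wild-type libraries, and the rd10 groups overlapped. It fell by 0.23 ± 0.07 log2 (SE, adjusted p = 0.022) with genotype, a call that was lost without wild-type saline replicate 1. Its paralog Kdm2b ranged from 23.0 to 30.4 CPM and was not called in any comparison.

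The H3K4 demethylases belong to the KDM5 family, which removes methyl groups from di- and trimethylated H3K4 and so overlaps in substrate with LSD1. Kdm5b was at 325 and 312 CPM in wild-type saline, 320, 314 and 359 in wild-type GSK, 169, 164 and 174 in rd10 saline, and 220, 256.5 and 312 in rd10 GSK. All rd10 saline libraries lay far below the rest, and the highest rd10 GSK library reached the lowest wild-type saline library. The difference was -0.92 ± 0.11 log2 (SE, adjusted p = 1.2e-04) with genotype and 0.64 ± 0.10 (adjusted p = 9.7e-04) with GSK in rd10, and the interaction 0.58 ± 0.16 (adjusted p = 0.033). The interaction call was lost in 9 of 21 alternatives. Kdm5a ranged from 85.8 to 111 CPM and was not called in any comparison.

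Kdm5c and the H3K27 demethylase Kdm6a lie on the X chromosome and are known to escape X inactivation in mice. Kdm5c was at 303 and 281 CPM in wild-type saline, 260, 189 and 285 in wild-type GSK, 210, 131 and 226 in rd10 saline, and 181, 244 and 175 in rd10 GSK. In every group that holds both kinds of library, those with little Xist had less Kdm5c: overall 131 to 189 CPM in the 4 libraries with Xist under 10 CPM and 210 to 303 CPM in the other 7. Kdm6a was at 95.5 and 99.0 CPM in wild-type saline, 97.3, 61.7 and 99.7 in wild-type GSK, 84.3, 43.2 and 87.1 in rd10 saline, and 51.0, 88.5 and 55.1 in rd10 GSK. Here too the 4 libraries low in Xist (43.2 to 61.7 CPM) lay below the other 7 (84.3 to 99.7 CPM). Such a separation was seen for 2 of the 50 enzymes and for 0.211% of all tested genes.

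Without regard to Xist, the genotype difference was -0.63 ± 0.26 log2 (SE, adjusted p = 0.085) for Kdm5c and -0.44 ± 0.36 (adjusted p = 0.38) for Kdm6a. With Xist as a term in the edgeR fit it was -0.47 ± 0.08 (adjusted p = 0.0011) for Kdm5c and -0.24 ± 0.08 (adjusted p = 0.028) for Kdm6a. With GSK in rd10 and the Xist term, Kdm5c differed by 0.29 ± 0.07 (adjusted p = 0.012) and Kdm6a by 0.14 ± 0.07 (adjusted p = 0.15). The libraries low in Xist were 0 of 2 in wild-type saline, 1 of 3 in wild-type GSK, 1 of 3 in rd10 saline and 2 of 3 in rd10 GSK.

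**Figure D4:**
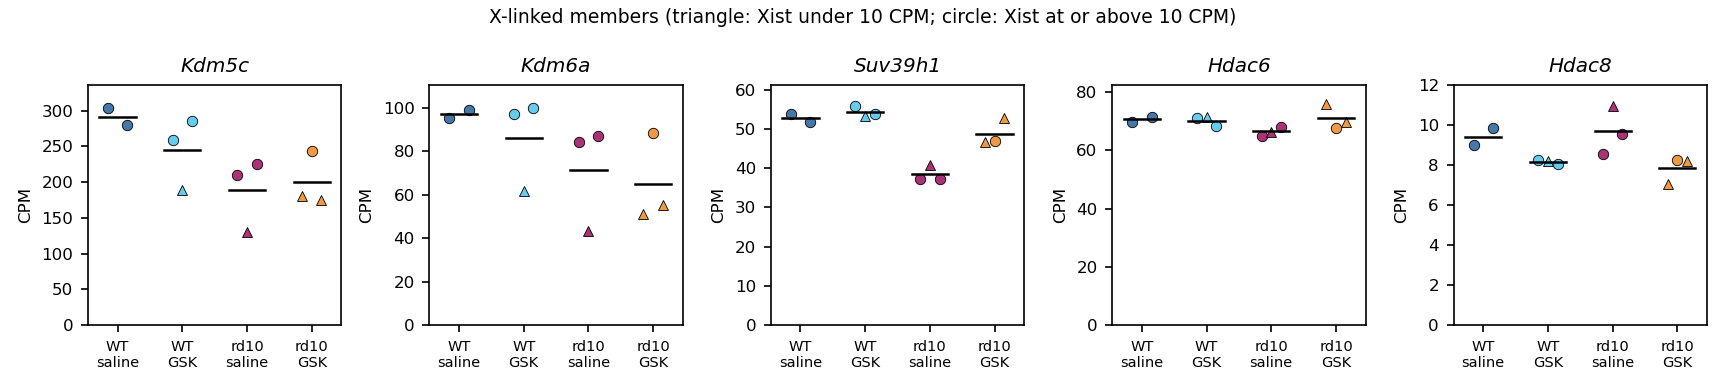
Level in CPM (y axis, from 0) of the 5 X-linked enzymes in each library, by group (x axis), with the group mean as a bar. Triangles are libraries with Xist under 10 CPM and circles the others. For Kdm5c and Kdm6a every triangle lies below every circle, whereas for Suv39h1, Hdac6 and Hdac8 the ranges overlap.

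Of the 3 demethylases of H3K27, none was called with genotype or with GSK in rd10 in the fit without an Xist term. Kdm6b, an inducible enzyme of this family, was at 112 and 108.5 CPM in wild-type saline, 115, 108 and 130.5 in wild-type GSK, 129, 118 and 141.5 in rd10 saline, and 148, 150 and 140 in rd10 GSK. All rd10 libraries lay above both wild-type saline libraries, and the rd10 GSK libraries, which did not clear the highest rd10 saline library, were the highest as a group. The difference was 0.23 ± 0.09 log2 (SE, adjusted p = 0.055) in rd10 saline and 0.41 ± 0.09 (adjusted p = 0.0077) in rd10 GSK, each against wild-type saline. Kdm7a ranged from 71.5 to 116 CPM and was not called in any comparison.

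Of the 8 genes of H3K4 methylation, 2 were called with genotype (40.5% of all genes), Setd7 as higher and Kmt2e as lower. Setd7 monomethylates H3K4 and also modifies non-histone proteins. It was at 150.5 and 131 CPM in wild-type saline, 122.5, 116 and 123 in wild-type GSK, 195, 152.5 and 193 in rd10 saline, and 133, 139 and 121 in rd10 GSK. The rd10 saline libraries were the highest of all, and every wild-type GSK library lay below both wild-type saline libraries. Setd7 rose by 0.36 ± 0.10 log2 (SE, adjusted p = 0.018) in rd10 saline and fell by 0.46 ± 0.09 (adjusted p = 0.0032) with GSK in rd10. In the main fit the GSK difference did not differ detectably between genotypes (interaction -0.23 ± 0.14, edgeR adjusted p = 0.31). Without rd10 saline replicate 2 the Setd7 interaction was called, with 14.8% of all genes called. The genotype call was lost in 5 of 22 alternatives, including the omission of wild-type saline replicate 2, and the GSK call only with inner retinal scaling (-0.13 log2).

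Kmt2e, a family member without known methyltransferase activity of its own, was at 282 and 256 CPM in wild-type saline, 247, 266 and 277 in wild-type GSK, 224, 176 and 236 in rd10 saline, and 223, 235 and 246 in rd10 GSK. All rd10 libraries lay below all wild-type libraries, and the rd10 groups overlapped. It fell by 0.34 ± 0.11 log2 (SE, adjusted p = 0.025) in rd10 saline, a call that was lost without wild-type saline replicate 1. The large COMPASS-type enzymes Kmt2a, Kmt2b, Kmt2c and Kmt2d and the SET1 enzymes Setd1a and Setd1b were not called in any comparison. Kmt2a was at 406, 304.5 and 506 CPM in rd10 saline against 324 and 294 in wild-type saline. Its difference was 0.39 ± 0.17 log2 (SE, adjusted p = 0.098), and 0.55 ± 0.11 (adjusted p = 0.0038) without rd10 saline replicate 2.

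Among the H3K36 and H3K79 methyltransferases, Dot1l, the enzyme of H3K79 methylation, was at 136 and 134 CPM in wild-type saline, 120.5, 130 and 127 in wild-type GSK, 108, 98.6 and 121 in rd10 saline, and 163, 157 and 144.5 in rd10 GSK. The rd10 GSK libraries were above every other library, including wild type. Dot1l fell by 0.30 ± 0.08 log2 (SE, adjusted p = 0.011) in rd10 saline, a call lost when either wild-type saline library was left out, and rose by 0.51 ± 0.07 (adjusted p = 3.9e-04) with GSK in rd10. The interaction was 0.60 ± 0.11 (adjusted p = 0.0048). Against wild-type saline, rd10 GSK was higher by 0.20 log2 without passing the test.

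Setd2, which trimethylates H3K36, was at 175 and 167 CPM in wild-type saline, 174, 176 and 196.5 in wild-type GSK, 146, 123 and 154 in rd10 saline, and 148, 151 and 162 in rd10 GSK. Every rd10 library was below every wild-type library, with overlap between the rd10 groups. It fell by 0.28 ± 0.09 log2 (SE, adjusted p = 0.027) in rd10 saline, a call lost when either wild-type saline library was left out. Nsd1, which dimethylates H3K36, ranged from 225 to 296 CPM and was not called.

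The H3K9 methyltransferases held the largest difference of the whole set. Suv39h2 and its paralog Suv39h1 trimethylate H3K9 at constitutive heterochromatin. The promoter windows of the 3 enzymes with the smallest adjusted p in the genotype comparison, Suv39h2, Kdm4c and Hdac9, are shown as the sequences in front of the clearest differences; whether these genes share control was not tested. Each window runs from 250 bases before to 50 bases after a RefSeq transcription start (GRCm38.p6) and is printed 5′ to 3′ along the gene's strand. The Suv39h2 window lies at chr2:3474937-3475236 on the minus strand, the first Kdm4c window at chr4:74242247-74242546 and the second at chr4:74251629-74251928 on the plus strand, and the Hdac9 window at chr12:34528840-34529139 on the minus strand. Hdac9 has another window, at chr12:34917046-34917345, that is not printed. Capitals mark the letters TAATCC or their reverse complement GGATTA, the core recognised by the photoreceptor factor CRX and its OTX relatives, searched on both strands.
Suv39h2: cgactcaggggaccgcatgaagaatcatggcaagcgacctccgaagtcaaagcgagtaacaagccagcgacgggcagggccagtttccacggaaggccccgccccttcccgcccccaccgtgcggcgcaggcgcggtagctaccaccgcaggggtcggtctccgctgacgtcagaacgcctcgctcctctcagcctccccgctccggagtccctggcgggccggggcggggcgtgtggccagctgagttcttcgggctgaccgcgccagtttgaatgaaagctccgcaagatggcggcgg
Kdm4c first window: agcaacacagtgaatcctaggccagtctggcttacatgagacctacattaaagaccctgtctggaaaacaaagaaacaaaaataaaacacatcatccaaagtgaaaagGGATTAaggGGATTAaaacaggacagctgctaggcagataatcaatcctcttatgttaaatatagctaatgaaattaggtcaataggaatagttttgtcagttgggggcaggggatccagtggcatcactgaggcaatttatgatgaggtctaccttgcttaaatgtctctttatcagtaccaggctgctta
Kdm4c second window: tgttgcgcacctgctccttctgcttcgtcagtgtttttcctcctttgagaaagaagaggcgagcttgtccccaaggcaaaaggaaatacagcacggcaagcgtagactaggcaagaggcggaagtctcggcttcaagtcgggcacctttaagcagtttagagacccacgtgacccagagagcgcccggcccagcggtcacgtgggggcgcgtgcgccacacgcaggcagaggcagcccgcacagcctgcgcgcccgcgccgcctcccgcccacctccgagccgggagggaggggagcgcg
Hdac9: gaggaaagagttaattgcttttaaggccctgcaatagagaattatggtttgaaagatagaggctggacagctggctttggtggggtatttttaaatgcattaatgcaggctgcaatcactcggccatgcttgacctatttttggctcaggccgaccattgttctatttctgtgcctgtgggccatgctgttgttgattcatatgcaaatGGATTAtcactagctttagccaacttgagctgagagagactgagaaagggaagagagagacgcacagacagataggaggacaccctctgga
The Suv39h2 window and the second Kdm4c window hold 33 and 28 CG dinucleotides and no match. The first Kdm4c window holds 2 matches and 0 CG dinucleotides, and the printed Hdac9 window 1 match and 3 CG dinucleotides. The Hdac9 window that is not printed holds no match and 0 CG dinucleotides. Windows were found for 38 of the 50 enzymes (53 windows), of which 4 windows (7.55%) held the motif, in Hdac9, Kat7, Kdm2b and Kdm4c, against 7.06% of all 32851 windows. The median number of CG dinucleotides was 27 in the enzymes' windows and 7 in all windows.

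Suv39h2 was at 38.1 and 37.6 CPM in wild-type saline, 36.2, 37.6 and 37.4 in wild-type GSK, 13.9, 12.9 and 15.3 in rd10 saline, and 31.4, 33.6 and 36.2 in rd10 GSK. The rd10 saline mean was 37.0% of the wild-type saline mean and the rd10 GSK mean 89.1%. The rd10 saline libraries were far below all others, and the highest rd10 GSK library reached the lowest wild-type one. Suv39h2 fell by 1.43 ± 0.08 log2 (SE, adjusted p = 7.0e-07) with genotype and rose by 1.27 ± 0.08 (adjusted p = 1.5e-06) with GSK in rd10, with an interaction of 1.30 ± 0.11 (adjusted p = 6.0e-05). Exons on the opposite strand, mostly of Dclre1c, cover 10.0% of its exon bases.

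The X-linked paralog Suv39h1 was at 53.8 and 51.8 CPM in wild-type saline, 55.9, 53.3 and 53.8 in wild-type GSK, 37.3, 40.8 and 37.4 in rd10 saline, and 46.7, 47.1 and 52.8 in rd10 GSK. The rd10 saline libraries lay below all others, whereas rd10 GSK overlapped with wild type, and libraries low in Xist did not stand apart. It fell by 0.46 ± 0.07 log2 (SE, adjusted p = 3.3e-04) and rose by 0.34 ± 0.06 (adjusted p = 0.0015) with GSK in rd10. Its interaction was not called in the main fit. The interaction was called under DESeq2 (14.3% of all genes called), with a mean of at least 50 counts (16.5%) and with inner retinal scaling (35%). It was also called without rd10 saline replicate 2 (14.8%) and without rd10 GSK replicate 1 (18.5%). Exons on the opposite strand cover 14.6% of its exon bases.

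Ehmt1, which with Ehmt2 forms the main H3K9 dimethyltransferase of euchromatin, was at 76.4 and 75.0 CPM in wild-type saline, 75.2, 72.3 and 83.6 in wild-type GSK, 64.8, 63.3 and 66.6 in rd10 saline, and 71.2, 72.9 and 76.3 in rd10 GSK. Only the rd10 saline group lay apart from the others. It fell by 0.22 ± 0.07 log2 (SE, adjusted p = 0.018) and rose by 0.18 ± 0.06 (adjusted p = 0.036) with GSK, but the first call was lost in 3 and the second in 10 of 22 alternatives. Ehmt2, and Setdb1, which trimethylates H3K9, were not called in any comparison.

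Of the PRC2 core, which writes H3K27 methylation, 2 of 4 genes fell in rd10 saline (19.0% of all genes). With GSK in rd10, 3 of 4 rose (17.6% of all genes). Ezh1, the catalytic subunit typical of non-dividing cells, was at 103 and 106 CPM in wild-type saline, 99.6, 102 and 94.8 in wild-type GSK, 76.2, 76.5 and 78.5 in rd10 saline, and 85.3, 101 and 106 in rd10 GSK. In rd10 saline every library was below all others, and rd10 GSK overlapped with both wild-type groups. It fell by 0.44 ± 0.08 log2 (SE, adjusted p = 0.0011) and rose by 0.34 ± 0.07 (adjusted p = 0.0038) with GSK in rd10, with an interaction of 0.42 ± 0.11 (adjusted p = 0.025). The interaction call was lost in 7 of 21 alternatives. Ezh2, the catalytic subunit typical of dividing cells, ranged from 13.4 to 15.7 CPM over all libraries and was not called in any comparison.

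Suz12, a structural subunit, was at 189 and 189 CPM in wild-type saline, 198, 197 and 204 in wild-type GSK, 134, 115 and 134 in rd10 saline, and 145, 155 and 165 in rd10 GSK. The genotypes did not overlap, nor did the rd10 groups. Suz12 fell by 0.57 ± 0.07 log2 (SE, adjusted p = 1.2e-04) in rd10 saline, rose by 0.28 ± 0.07 (adjusted p = 0.0074) with GSK, and in rd10 GSK differed by -0.29 ± 0.07 (adjusted p = 0.016) from wild-type saline. Eed, the subunit that binds the methyl mark, was at 28 and 28.9 CPM in wild-type saline, 26.0, 29.1 and 27.1 in wild-type GSK, 25.2, 26.1 and 26.4 in rd10 saline, and 34.1, 29.9 and 29.8 in rd10 GSK. The rd10 GSK libraries were the highest group. Eed rose by 0.27 ± 0.07 log2 (SE, adjusted p = 0.013) with GSK in rd10 and was not called with genotype (-0.13 ± 0.08, adjusted p = 0.20).

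The class IIa deacetylases shuttle between nucleus and cytoplasm and bind the MEF2 factors. Of these 4 genes, 2 fell in rd10 saline (19.0% of all genes) and 1 rose (21.5%). With GSK in rd10, 3 of 4 rose (17.6% of all genes). Hdac9 was at 127 and 128 CPM in wild-type saline, 131, 129 and 133 in wild-type GSK, 72.9, 64.4 and 74.9 in rd10 saline, and 85.8, 101 and 106 in rd10 GSK. The ranges of rd10 saline, rd10 GSK and wild type did not overlap. It fell by 0.85 ± 0.09 log2 (SE, adjusted p = 2.1e-05), rose by 0.46 ± 0.08 (adjusted p = 0.0010) with GSK in rd10, and had an interaction of 0.42 ± 0.12 (adjusted p = 0.036). The interaction call was lost in 8 of 21 alternatives.

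Hdac5 was at 307 and 303 CPM in wild-type saline, 287, 301 and 275 in wild-type GSK, 226, 239 and 229 in rd10 saline, and 255.5, 278 and 299 in rd10 GSK. Here rd10 GSK overlapped with wild-type GSK, and rd10 saline was below all other libraries. Hdac5 fell by 0.40 ± 0.07 log2 (SE, adjusted p = 9.1e-04) and rose by 0.26 ± 0.06 (adjusted p = 0.0079) with GSK in rd10, with an interaction of 0.35 ± 0.09 (adjusted p = 0.035). The interaction call was lost in 8 of 21 alternatives.

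Hdac4 was at 27.9 and 27.9 CPM in wild-type saline, 27.3, 25.9 and 31.6 in wild-type GSK, 26.2, 22.3 and 28.5 in rd10 saline, and 28.4, 36.3 and 34.8 in rd10 GSK. The lowest rd10 GSK library lay just below the highest rd10 saline library. Hdac4 rose by 0.37 ± 0.11 log2 (SE, adjusted p = 0.026) with GSK in rd10, a call that was lost in 6 of 22 alternatives, and was not called with genotype (-0.12 ± 0.13, adjusted p = 0.49). Exons of Gm26720 on the opposite strand cover 22.4% of its exon bases.

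Hdac7, the class IIa gene known for its role in endothelial cells, was the other enzyme that rose in rd10 saline. It was at 27.5 and 31.0 CPM in wild-type saline, 26.4, 33.5 and 25.6 in wild-type GSK, 42.0, 47.0 and 43.0 in rd10 saline, and 44.3, 43.7 and 39.2 in rd10 GSK. All rd10 libraries lay above all wild-type libraries, and the 2 rd10 groups overlapped. It rose by 0.59 ± 0.11 log2 (SE, adjusted p = 0.0017) with genotype and was not called with GSK in rd10 (-0.05 ± 0.10, adjusted p = 0.72), so that rd10 GSK stood 0.54 ± 0.11 log2 above wild-type saline (adjusted p = 0.0071). Summed over 8 endothelial and blood genes, rd10 saline libraries held 625 to 718 CPM, against 366 to 380 CPM with saline in wild type and 340 to 433 CPM with GSK in rd10. Kdr alone of these 8 genes was called higher in rd10 saline, Tek, Hba-a1, Hba-a2 and Alas2 were called lower, Pecam1, Cdh5 and Cldn5 were not called, and the median over the list was -0.29 log2. The part of this list in the Hdac7 difference was not tested.

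**Figure D5:**
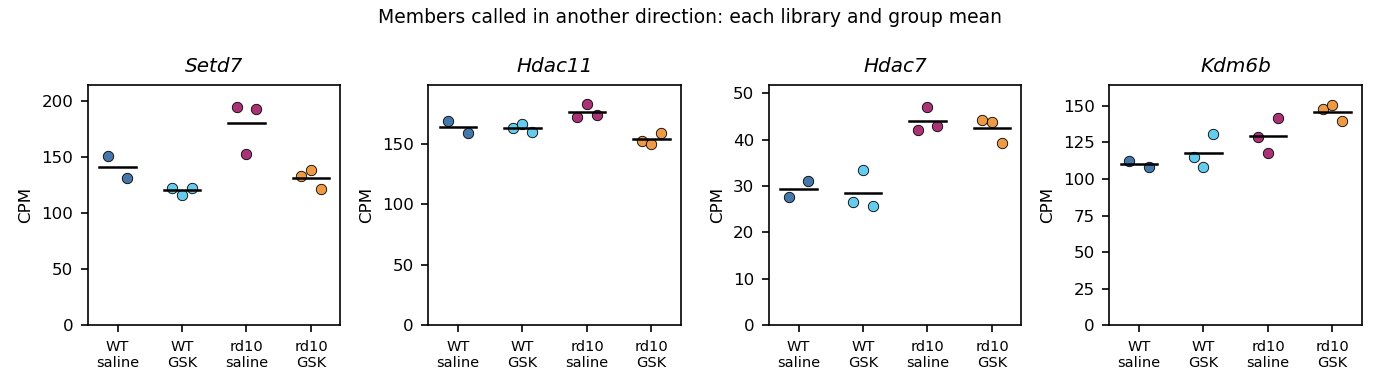
Level in CPM (y axis, from 0) of Setd7, Hdac11, Hdac7 and Kdm6b in each library (points) and as the group mean (bars), by group (x axis). Setd7 and Hdac11 are highest in rd10 saline and lower in rd10 GSK, whereas Hdac7 and Kdm6b lie above wild-type saline in both rd10 groups.

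Of the 3 class IIb and IV deacetylases, 1 fell in rd10 saline (19.0% of all genes). With GSK in rd10, 1 rose (17.6% of all genes) and 1 fell (15.2%). Hdac10, a class IIb enzyme known for deacetylating polyamines, was at 14.2 and 14.5 CPM in wild-type saline, 16, 16.5 and 14.8 in wild-type GSK, 11.6, 12.3 and 11.5 in rd10 saline, and 14.2, 14.4 and 16 in rd10 GSK. Again rd10 saline lay below all others. Hdac10 fell by 0.28 ± 0.09 log2 (SE, adjusted p = 0.025), a call lost in 6 of 22 alternatives, and rose by 0.34 ± 0.08 (adjusted p = 0.0079) with GSK in rd10. Hdac11, the only class IV enzyme, was at 169 and 158 CPM in wild-type saline, 163, 166 and 160 in wild-type GSK, 172, 182.5 and 173 in rd10 saline, and 152, 150 and 159 in rd10 GSK. All rd10 saline libraries were above all rd10 GSK libraries. Hdac11 fell by 0.20 ± 0.05 log2 (SE, adjusted p = 0.0088) with GSK in rd10, and was not called with genotype (0.10 ± 0.05, adjusted p = 0.15). Without rd10 GSK replicate 2 the call was lost, and with inner retinal scaling the difference turned to 0.13 log2. Exons on the opposite strand cover 17.9% of its exon bases.

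The X-linked deacetylases Hdac6, a class IIb enzyme that acts on tubulin, and Hdac8, a class I enzyme, were not called in any comparison. Hdac6 was at 69.8 and 71.6 CPM in wild-type saline, 71.1, 71.4 and 68.4 in wild-type GSK, 64.9, 66.5 and 68.2 in rd10 saline, and 76.0, 67.8 and 69.9 in rd10 GSK. Hdac8 was at 9.00 and 9.84 CPM in wild-type saline, 8.25, 8.19 and 8.07 in wild-type GSK, 8.56, 10.9 and 9.54 in rd10 saline, and 7.05, 8.26 and 8.20 in rd10 GSK. The rd10 GSK libraries of Hdac8 lay below all rd10 saline libraries, a difference of -0.30 ± 0.11 log2 (SE, adjusted p = 0.054) that just missed the threshold. Hdac3, the class I enzyme of the NCoR and SMRT corepressors, ranged from 56.5 to 67.1 CPM and was not called.

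Of the 8 acetyltransferases, which open chromatin and act as coactivators, 3 fell in rd10 saline (19.0% of all genes). With GSK in rd10, 1 rose (17.6% of all genes). Kat2b (PCAF) was at 135 and 140 CPM in wild-type saline, 145, 148 and 151.5 in wild-type GSK, 123.5, 107 and 117 in rd10 saline, and 121, 126.5 and 141 in rd10 GSK. The rd10 saline libraries lay below all wild-type libraries, and rd10 GSK overlapped with rd10 saline and with wild-type saline. It fell by 0.25 ± 0.07 log2 (SE, adjusted p = 0.017).

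Kat5 (TIP60), the catalytic subunit of the NuA4 complex, was at 71.7 and 71.0 CPM in wild-type saline, 72.5, 69.9 and 71.9 in wild-type GSK, 64.9, 64.7 and 61.3 in rd10 saline, and 71.1, 71.0 and 72.7 in rd10 GSK. Only rd10 saline stood apart. Kat5 fell by 0.17 ± 0.05 log2 (SE, adjusted p = 0.020) and rose by 0.17 ± 0.04 (adjusted p = 0.012) with GSK in rd10, and exons on the opposite strand cover 12.1% of its exon bases. Kat7 (HBO1) was at 89.3 and 87.9 CPM in wild-type saline, 86.6, 93.1 and 90.5 in wild-type GSK, 79.1, 78.4 and 80.8 in rd10 saline, and 82.1, 84.9 and 84.2 in rd10 GSK. All rd10 libraries lay below all wild-type libraries. Kat7 fell by 0.16 ± 0.05 log2 (SE, adjusted p = 0.028).

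The 3 genotype calls of acetyltransferases were each lost when either wild-type saline library was left out. Ep300 and Crebbp, the paired coactivators that acetylate H3K27, and Kat2a, Kat6a and Kat6b were not called in any comparison. Crebbp was the only one of these 5 called without rd10 saline replicate 2, at 0.28 ± 0.08 log2 (SE, adjusted p = 0.019) with genotype. Kat6a was at -0.27 ± 0.11 log2 with genotype (SE, edgeR adjusted p = 0.064). It was called under DESeq2, with inner retinal scaling, with the replicate block and without rd10 saline replicate 3. Those settings called 36.2% to 41.5% of all genes.

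Other writers and erasers and the partner subunits of these enzymes were read the same way, as lists chosen with earlier results of these data known. Of 33 other writers and erasers, 3 were higher and 10 lower in rd10 saline, and 9 were higher and 2 lower with GSK in rd10, so 39.4% and 33.3% were called, beside 40.5% and 32.9% of all genes. Of 32 partner subunits, 2 were higher and 13 lower in rd10 saline, and 12 were higher and 1 lower with GSK in rd10, or 46.9% and 40.6% called. As among the 50 enzymes, the calls were near the all-gene share in number and mostly lower with genotype and higher with GSK in rd10. Their medians were -0.14 and -0.14 log2 with genotype and 0.14 and 0.10 with GSK in rd10. Kdm1a, the target of GSK, is in both lists and rose by 0.18 ± 0.06 log2 (SE, adjusted p = 0.028) with GSK in rd10.

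The related genes named here are those with the smallest adjusted p. Kmt5c, which trimethylates H4K20 in heterochromatin downstream of the Suv39h enzymes, was at 79.8 ± 5.71 CPM (SD, n = 2) in wild-type saline, 76.9 ± 0.557 (n = 3) in wild-type GSK, 43.9 ± 1.67 (n = 3) in rd10 saline and 65.1 ± 7.53 (n = 3) in rd10 GSK. It fell by 0.86 ± 0.08 log2 (SE, adjusted p = 1.7e-05) and rose by 0.57 ± 0.08 (adjusted p = 2.4e-04) with GSK. The NAD-dependent deacetylase Sirt2 fell by 0.54 ± 0.05 (SE, adjusted p = 7.6e-06) and rose by 0.29 ± 0.04 (adjusted p = 4.0e-04). Epc1, a NuA4 subunit, fell by 0.44 ± 0.05 (SE, adjusted p = 4.6e-05) and rose by 0.33 ± 0.04 (adjusted p = 2.5e-04). Ing4, a subunit of the HBO1 complex, fell by 0.50 ± 0.07 (SE, adjusted p = 1.5e-04) in rd10 saline. Its paralog Ing5 had the largest increase with GSK in these 2 lists among genes named, at 0.83 ± 0.07 (SE, adjusted p = 1.3e-05), from 15.9 ± 0.64 CPM (SD, n = 3) to 28.3 ± 1.02 (SD, n = 3).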

How the data were processed

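The table used holds raw read counts per gene, made and deposited by the authors for 11 libraries. Per the submitters' processing notes, reads were aligned with HISAT2 2.1.0 and counted with HTSeq, edgeR was used downstream, and the builds named are NCBIM37 and mm9. Per the labels' protocols, RNA integrity numbers were above 7, and stranded libraries were made from the polyA fraction of 200 ng RNA. How strand was treated in counting, and with which annotation, is not given in the sources used here. No coordinates of the authors' build are printed.

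Gene names and exon lengths came from GENCODE M21 through Ensembl identifiers, which named 32919 and left 5072, with 0.627% of all counts, unnamed. Promoter windows of 300 bases came from RefSeq (GRCm38.p6), and the 50 genes were matched to them by symbol.

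After filterByExpr (at least 10 counts, total at least 15), counts were scaled by TMM and fitted in edgeR 4.0.16 (R 4.3.3) with 1 coefficient per group over all 11 libraries and robust quasi-likelihood dispersions. The common biological coefficient of variation was 0.129. The 5 comparisons were: rd10 saline and rd10 GSK each against wild-type saline, GSK against saline within each genotype, and the interaction. P-values were adjusted by Benjamini-Hochberg over all 17099 genes tested. The SE is the absolute log2 fold change divided by the square root of F. Replicates are separate animals, and no pair of libraries in a group agreed within sampling noise.

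Simulated counts with the same groups and depths recovered 71%, 75.5%, 69%, 54.5% and 64% of 2-fold changes and 45%, 48.5%, 48.5%, 29% and 47.5% of 1.5-fold changes in the comparisons of genotype under saline, of GSK in rd10, of GSK in wild type, of the interaction and of treated rd10 with wild-type saline, in that order, on 16856 to 16869 genes.

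The alternatives were DESeq2 1.42.0, limma-voom (limma 3.58.1), DESeq2's size factors, scaling to 22 inner retinal genes, no filter or a mean of at least 50 counts, fitting only the groups compared, the replicate number as a block, Xist at or above 10 CPM (counts scaled by library size) as a term or as a condition, and leaving out libraries. Values in every library are given for up to 3 called genes per class with the smallest adjusted p, for genes called in the interaction or in wild type, and for X-linked genes. The other genes are given by counts and ranges, and genes called with an absolute log2 change of at least 0.5 also with their values. Values per library for Kdm6b and Kmt2a fall outside this rule and were added after they had been seen. The members and lists were chosen with earlier results of these data known.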

Additional observations from a re-analysis of the deposited data

Results flagged for a closer look

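The GSK difference in rd10 mice differed from the GSK difference in wild-type mice for 9 of the 50 genes, by edgeR's interaction test with Benjamini-Hochberg adjustment over all tested genes. The same test called 12.5% of all tested genes, and 16.5% of those with a mean of at least 50 counts. The log2 interaction was 1.30 for Suv39h2, 0.682 for Kdm4c, 0.604 for Dot1l, 0.582 for Kdm5b, 0.536 for Kdm3b, 0.42 for Hdac9, 0.418 for Ezh1, 0.379 for Kdm3a and 0.345 for Hdac5. Suv39h2 and Kdm4c kept the call in all 21 alternative analyses. It was lost in 14 for Kdm3a, 9 for Kdm5b, 8 each for Hdac5 and Hdac9, 7 for Ezh1, 2 for Kdm3b and 1 for Dot1l. In each of the 9 genes the rd10 GSK libraries lay above all 3 rd10 saline libraries, and the wild-type GSK difference lay between -0.10 (Dot1l) and 0.06 (Kdm5b) log2. The other 41 genes did not pass this test and are not shown to respond alike in both genotypes. In simulated data, where only a small share of genes was changed, the test recovered 29% of 1.5-fold differences. Those genes were drawn from all those tested, not from these 50.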

How the results depend on the processing

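The direction of every called gene among the 50 was kept under the alternatives run, except that of Hdac11 with GSK in rd10, which turned to 0.132 log2 with inner retinal scaling. Leaving out both libraries with lens transcripts gave 12 calls with genotype, 2 in the interaction and 1 in rd10 GSK against wild-type saline. Inner retinal scaling used genes from lists whose TMM-scaled sums were lower with GSK in rd10. It gave 38 calls with GSK in rd10 (54.6% of all genes called) and 30 in the interaction (35%). In rd10 GSK against wild-type saline it gave 14 calls (36.1%). It moved the median of all tested genes to -0.08 log2 with genotype and to 0.34, 0.32 and 0.23 in those 3 comparisons, and the higher share among called genes from 53.0% to 35.6% with genotype, from 53.6% to 95.6% with GSK in rd10, from 60.1% to 96.6% in the interaction and from 57.8% to 93.0% in rd10 GSK against wild-type saline. Fitting only the groups compared gave 12 calls with GSK in rd10 (21.8% of all genes called) and 1 in wild type (5.64%). It was not run for the interaction, which uses all 4 groups. Keeping only libraries with Xist at or above 10 CPM left a single rd10 GSK library, assumed to vary like the other groups. That library was replicate 2, with 7310 CPM of lens transcripts. Leaving out the libraries with lens transcripts kept only rd10 GSK libraries low in Xist and 1 wild-type saline library high in Xist. The effects of lens transcripts and of Xist can thus not be told apart in these settings. Leaving out 1 library at a time gave 13 to 26 calls with genotype, 16 to 22 with GSK in rd10, 0 in wild type, 3 to 11 in the interaction and 1 to 11 in rd10 GSK against wild-type saline. Where a wild-type saline library was left out, the lone remaining one was likewise assumed to vary like the other groups. With each library of the other groups left out in turn, 35.4% to 44.1% of all genes were called with genotype. The all-gene shares were then 25.6% to 37.3% with GSK in rd10 and 0.146% to 1.07% in wild type. They were 7.51% to 18.5% in the interaction and 17.3% to 31.2% in rd10 GSK against wild-type saline. The cause of these shifts was not tested.

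With the replicate number as a block, 23, 19, 0, 9 and 9 genes were called in the 5 comparisons, taken in the order genotype, GSK in rd10, GSK in wild type, interaction and treated rd10 against wild-type saline. The numbers did not pair the samples: correlations of same-numbered libraries ranged from -0.159 to 0.296, and 6 of 15 were over 0.1.

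The uncalled differences of Kdm6a and Kdm5c changed sign. With GSK in rd10, Kdm6a was at 0.183 with inner retinal scaling, 0.143 with the Xist term and 0.0471 with only libraries high in Xist, and ranged from -0.42 to 0.0323 when 1 library at a time was left out. Kdm5c was at -0.072 without the libraries with lens transcripts, where the rd10 GSK libraries kept were all low in Xist. It ranged from -0.113 to 0.241 when 1 library was left out. In wild type, Kdm6a was at 0.0593 with the Xist term and 0.0176 with only libraries high in Xist, and ranged from -0.291 to 0.0182 when 1 library was left out. Its interaction was -0.273 without the libraries with lens transcripts and ranged from -0.249 to 0.204 when 1 library was left out. The related genes and markers were not refitted under the alternatives. Each of the 50 genes had at least 176 counts in every library, and 2 or 3 animals per group limit the precision.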
